A study of Mus musculus with 12 samples.

Results

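The genes described here are 8 genes of the inflammasome and of pyroptosis, namely Nlrp3, Aim2, Nek7, Pycard, Casp1, Casp4, Gsdmd and Il18. They were taken by symbol as 8 of the 38215 rows of the gene count table. The cells were RAW264.7, a mouse macrophage line derived from BALB/c mice, and polyadenylated RNA was sequenced in 12 libraries. Cells received by nucleofection either a control siRNA pool with no target or an siRNA pool against SF3a1, a subunit of the U2 snRNP of the spliceosome. After 24 h they received either no LPS or LPS, a bacterial cell wall component sensed by TLR4, at 20 ng/ml for 4 h, so that all groups had been transfected with siRNA. Crossing the siRNAs with LPS gave 4 groups of 3 libraries. Reads on genes per library ranged from 20659511 to 40840082 in control siRNA without LPS and from 13021502 to 41091887 in control siRNA with LPS. They ranged from 12746019 to 27789833 in SF3a1 siRNA without LPS and from 17174058 to 36506558 in SF3a1 siRNA with LPS.

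An inflammasome is a protein complex in which a cytosolic sensor recruits an adaptor and a protease of the caspase family. NLRP3 senses disturbance of the cell's ion balance and needs the kinase NEK7, whereas AIM2 binds double-stranded DNA in the cytosol. Both sensors recruit caspase-1 through the adaptor ASC, which is encoded by Pycard, and caspase-1 then cleaves pro-IL-18 and pro-IL-1β and the pore-forming protein gasdermin D. The product of mouse Casp4, also called caspase-11, binds intracellular LPS and cleaves gasdermin D directly, and the lytic death that follows is called pyroptosis. In macrophages LPS is widely used as the priming signal that raises NLRP3 before a later stimulus activates the complex. RAW264.7 cells have been described as lacking ASC.

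Of the 8 genes 7, all but Gsdmd, had a window of sequence before an annotated start. Those of 3 genes are shown because these genes mark the extremes of the data, 2 whose level rose most with LPS and 1 with almost no reads. The sequences are from RefSeq on the mouse build GRCm38.p6, read 5′ to 3′ on the strand of the gene, and they end at the base before the first exon base annotated there. Capitals mark a match to a loose form of the κB motif bound by NF-κB, GGGA followed after any 4 bases by CC, searched on both strands.
Casp4, chr9:5308599-5308827: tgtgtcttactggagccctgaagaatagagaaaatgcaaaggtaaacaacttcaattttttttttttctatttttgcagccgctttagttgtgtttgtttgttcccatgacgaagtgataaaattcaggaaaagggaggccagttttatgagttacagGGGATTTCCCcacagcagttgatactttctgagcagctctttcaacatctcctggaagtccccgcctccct
Nlrp3, chr11:59541319-59541567: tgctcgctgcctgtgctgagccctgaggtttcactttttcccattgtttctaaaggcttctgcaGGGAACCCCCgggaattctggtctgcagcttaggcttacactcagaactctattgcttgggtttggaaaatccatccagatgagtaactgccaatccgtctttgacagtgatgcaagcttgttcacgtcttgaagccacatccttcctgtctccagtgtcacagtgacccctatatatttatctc
Pycard, chr7:127993868-127994117: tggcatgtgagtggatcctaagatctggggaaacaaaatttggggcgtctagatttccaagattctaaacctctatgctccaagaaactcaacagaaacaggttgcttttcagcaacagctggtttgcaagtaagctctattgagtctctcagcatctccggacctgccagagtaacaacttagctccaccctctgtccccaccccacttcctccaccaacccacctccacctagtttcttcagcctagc
The first base of the match lay 71 bases before that exon base in Casp4 and 185 bases before it in Nlrp3. Nlrp3 has another window, at chr11:59542436-59542685, which held no match, and a second window of Casp4 held the same match. The window of Nek7, at chr1:138619758-138619903, held GGGAGGGGCC, whose first base lay 32 bases before the start annotated at its end. This window lies inside the annotated span of Nek7, past its outermost start at 138620141 on the minus strand. The windows of Casp1, Aim2, Il18 and Pycard held none. Among 32851 windows of 250 bases before annotated mouse starts, 17.6% held this motif. Those windows were searched in full, whereas annotated exons were cut from the windows of these genes. This left 146 bases in Nek7, 217 in Aim2 and 229 and 218 in Casp4, so the shares are not for windows of like length. None of the windows of these genes held GAAA repeated after any 2 bases, a core of the element bound by interferon regulatory factors, searched on both strands, which 2.98% of all windows held.

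The siRNA target was checked first. Sf3a1 stood at 173, 216 and 185 CPM (counts relative to a library total scaled by the TMM method) in control siRNA without LPS and at 27.1, 27.5 and 32.1 CPM in SF3a1 siRNA without LPS. With LPS it stood at 150.0, 194 and 157 CPM with control siRNA and at 30.3, 26.7 and 45.05 CPM with SF3a1 siRNA. Mean Sf3a1 was thus at 15.1% of its control level without LPS and at 20.3% with LPS, with no overlap between the groups. The response to LPS was checked on Tnf, the gene of the cytokine TNF, whose mean rose from 35.4 ± 5.6 CPM to 1449 ± 675 CPM with control siRNA (SD, n = 3). This was a 40.9-fold rise, against 11.4-fold with SF3a1 siRNA. Without LPS mean Tnf was 2.24-fold higher with SF3a1 siRNA, with no overlap between the groups. With LPS it was at 62.4% of control siRNA, with overlap.

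The cell type was checked against marker lists. The 10 macrophage markers summed to between 10300 and 17200 CPM in every library, led by Lyz2 (lysozyme) at 4980 CPM or more, while Mertk was at most 2.60 CPM. Single markers still moved at an adjusted p of at most 0.1 by edgeR. LPS with control siRNA raised 6 of the 10 and lowered 1, against 32.1% of all genes. SF3a1 siRNA with LPS raised 4 and lowered 2, against 38.8% of all genes. It left mean Fcgr1 at 10.9% and mean Csf1r at 161% of control siRNA with LPS. The B cell, fibroblast and epithelial lists summed to at most 0.763, 0.342 and 0.211 CPM, and the neutrophil list to at most 1.39 CPM, most of it S100a8. Of the 6 T cell markers 5 stayed under 1 CPM in every library, and Cd8a had no read. The kinase gene Lck was the exception at 1.81 to 13.7 CPM. It was highest in control siRNA with LPS, where the T cell list summed to 10.0 to 13.8 CPM, against 1.81 to 2.68 CPM without LPS. With SF3a1 siRNA this list summed to 2.33 to 3.12 CPM without LPS and to 3.32 to 6.36 CPM with LPS. In the presence of LPS, Lck was lower with SF3a1 siRNA than with control siRNA (-1.348 on the log2 scale). The libraries numbered replicate 1, which were sequenced in 2 runs and were the deepest of each group, differed more from replicates 2 and 3 than these did from each other in 3 of the 4 groups. Over 4422 genes with at least 500 reads in every library, the median absolute difference in log2 CPM was 0.212 to 0.342 between replicate 1 and the others of its group and 0.095, 0.111 and 0.163 between replicates 2 and 3. The exception was SF3a1 siRNA with LPS, at 0.248 between replicates 2 and 3 and at 0.227 between replicates 1 and 3.

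Pycard was essentially without reads in this line. The 12 libraries held 6 reads of Pycard in all, with 1 read in each of 6 libraries and 0 in the other 6. Group sums were 2 reads in control siRNA without LPS, 2 in control siRNA with LPS, 1 in SF3a1 siRNA without LPS and 1 in SF3a1 siRNA with LPS. Each sum is under the 3 counts that a count of 0 would still allow, which equals 0.0335 to 0.051 CPM in these groups, and intervals of this kind cover counting error only. No difference between groups was therefore detectable for Pycard at this depth, and it did not pass the filter on low counts. The gene lies on mouse chromosome 7 (mm10, 127989708 to 127993867, minus strand) and overlaps the unclassified transcript Gm45205 on the opposite strand. The annotation used here gives Pycard 7 exon bins, against 3 in the deposited exon counts.

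**Figure D1:**
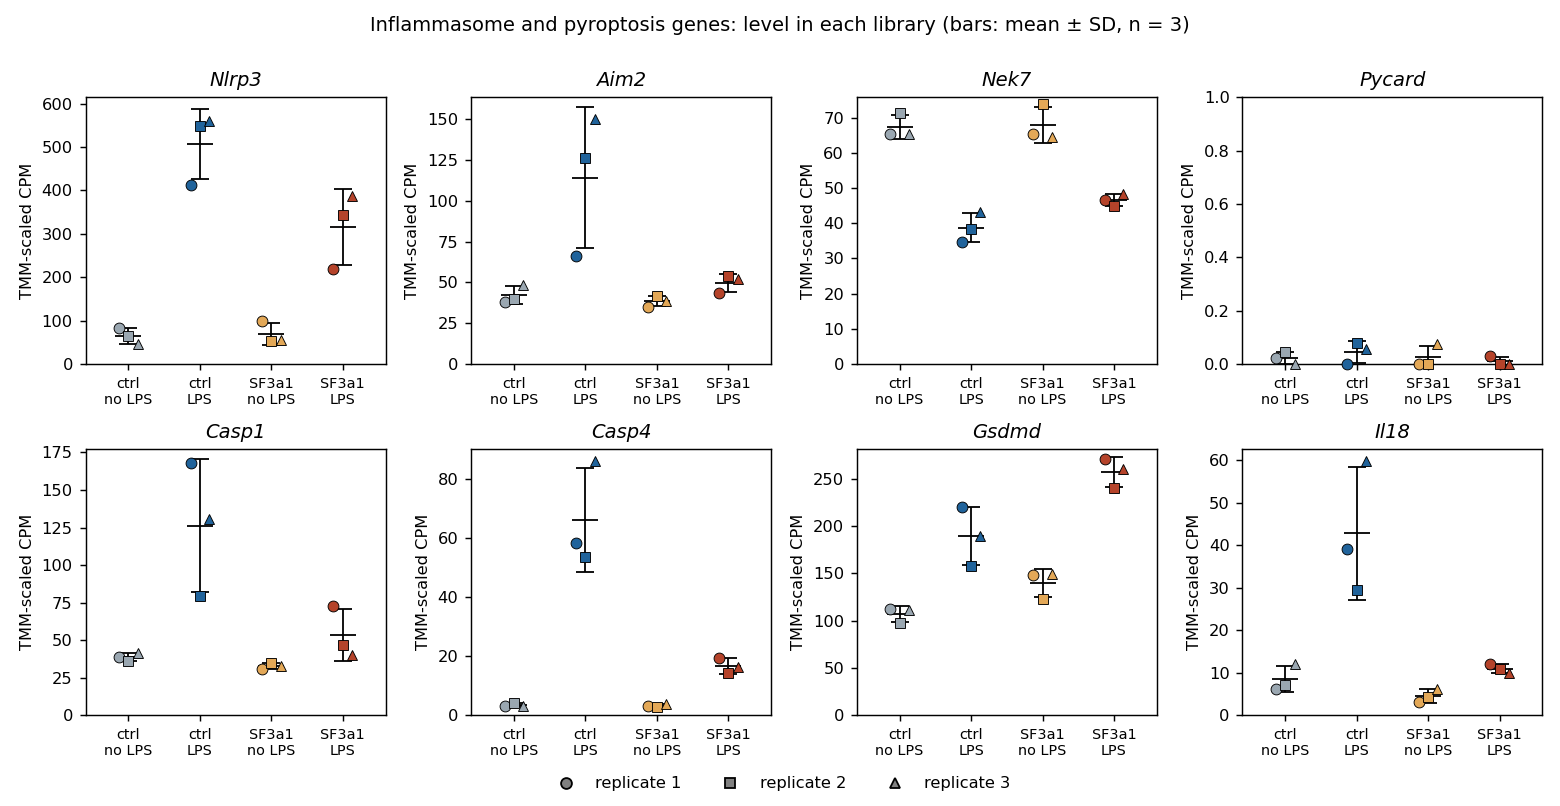
TMM-scaled CPM (vertical axes from 0, each panel with its own scale) of the 8 genes in each of 12 libraries, by group, with symbols for the replicate number and bars for mean ± SD (n = 3). The panels of 6 genes rise with LPS and control siRNA, Nek7 falls, and no library of Pycard exceeds 0.1 CPM on an axis that ends at 1 CPM.

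The other 7 genes were read in every library and passed the filter. Levels can be compared between genes only per length, and on the scale of CPM per kb of merged exons the order without LPS with control siRNA was Gsdmd at 45.0 ± 3.5, Casp1 at 26.0 ± 1.6, Nlrp3 at 15.8 ± 4.5, Aim2 at 11.99 ± 1.57, Nek7 at 9.15 ± 0.46, Il18 at 8.23 ± 2.99 and Casp4 at 0.978 ± 0.123 (SD, n = 3). Of these neighbours Nlrp3 and Aim2, and Nek7 and Il18, differed by less than their spread. After LPS with control siRNA the order changed to Nlrp3 at 125 ± 20, Casp1 at 84.3 ± 29.6, Gsdmd at 79.8 ± 12.99, Il18 at 41.5 ± 15.1, Aim2 at 32.6 ± 12.3, Casp4 at 17.8 ± 4.7 and Nek7 at 5.25 ± 0.57. In that group Casp1 and Gsdmd differed by less than their spread, as did Il18 and Aim2. The length mattered for Casp4, whose annotation holds 7 transcripts: per kb of its longest transcript it stood at 34.7 ± 9.3 with LPS, against 40.2 ± 15.2 for Aim2 on that scale. It also mattered for Gsdmd, which on that scale stood at 105.8 with LPS and control siRNA, above Casp1 at 84.33, so that their order was reversed. Pycard stood at 0.0119 CPM per kb with LPS and control siRNA.

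**Figure D2:**
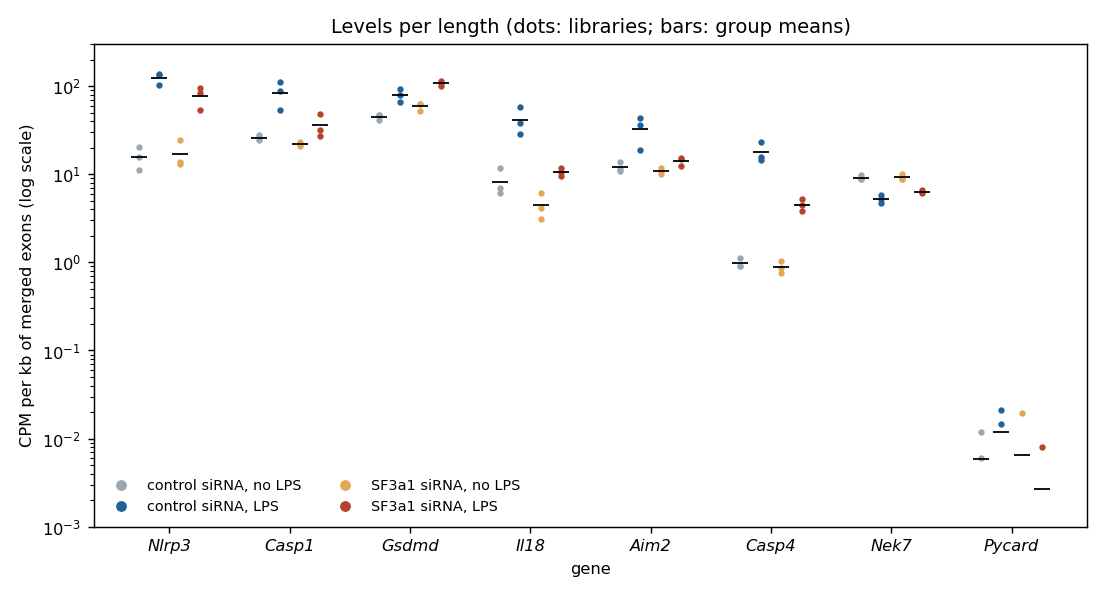
Level per length (CPM per kb of merged exons, log scale) of the 8 genes in the 4 groups, with dots for libraries and bars for group means; libraries of Pycard with 0 reads cannot be drawn on this axis. Nlrp3 reaches 125 CPM per kb with LPS, whereas the group means of Pycard stay at or under 0.0119.

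LPS with control siRNA moved all 7 tested genes. Of them 6 rose and 1 fell by edgeR's quasi-likelihood test at an adjusted p of at most 0.1, a threshold that 32.1% of all 14983 genes tested passed, 13.8% upward and 18.3% downward. The median log2 fold change over all genes was -0.02. With SF3a1 siRNA, where 10.7% of all genes passed, 6.6% upward and 4.06% downward, LPS changed 5 of the 7 genes, with 4 higher and 1 lower. Without replicate 2 of SF3a1 siRNA without LPS 3 of the 7 and 1058 of all genes, instead of 1598, passed. Under a block for the replicate number 6 of the 7 and 3115 of all genes passed. Without LPS, SF3a1 siRNA changed 2 of the 7, with Gsdmd higher and Il18 lower, against 33.8% of all genes, 13.7% upward and 20.1% downward. Neither passed without replicate 2 of control siRNA without LPS or without replicate 1 of SF3a1 siRNA without LPS. Of all genes, 3932 and 4382 passed in these fits, instead of 5069. Reads outside genes made up 20.8%, 21.6% and 27.2% of a library in SF3a1 siRNA without LPS, the highest in replicate 1, against 17.8% to 19.6% in control siRNA without LPS, and their part in these differences was not tested. With LPS it changed 6 of the 7, with 5 lower and 1 higher, against 38.8% of all genes, 20.4% downward and 18.4% upward. Without the 4 libraries numbered replicate 1, a choice made after the data were seen, LPS changed 7 of the 7 with control siRNA and 4 with SF3a1 siRNA, and SF3a1 siRNA changed 2 without LPS and 6 with LPS. Of all genes, 5135, 2238, 6135 and 6700 then passed in these 4 comparisons, against 4809, 1598, 5069 and 5818 with all libraries. In a bulk library, fewer cells with a transcript and less transcript per cell cannot be told apart. All groups are the same line, and transfection and exposure were done in triplicate with no mention of separate days, so p-values measure the spread between these samples, which may be technical.

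**Figure D3:**
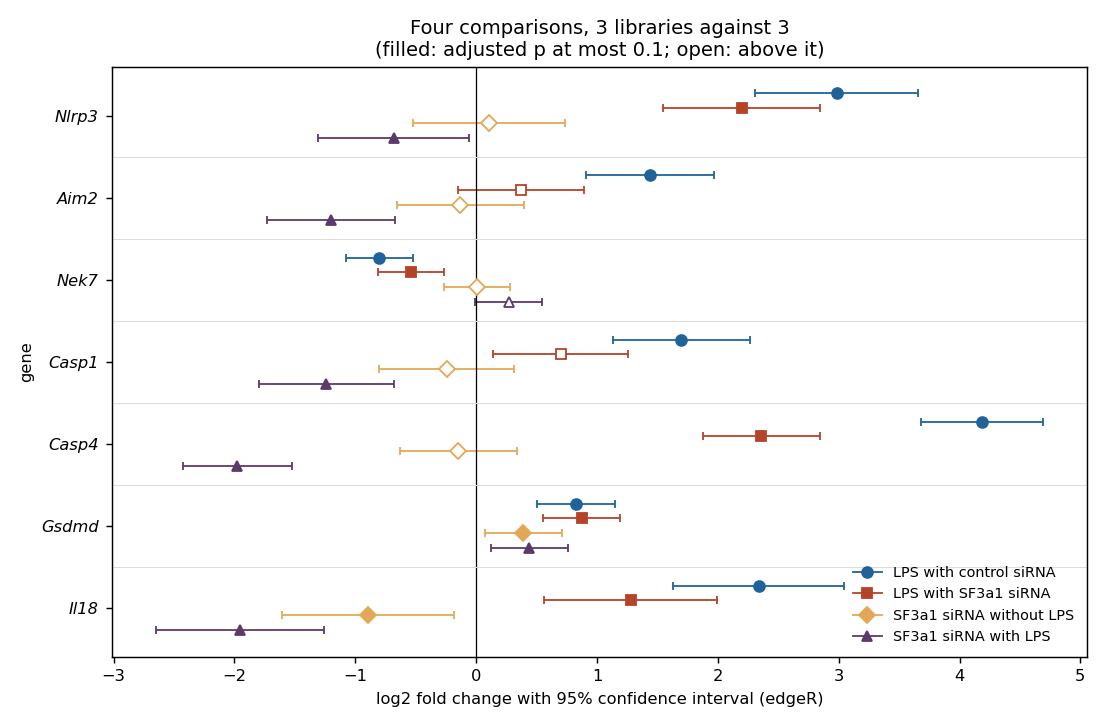
Log2 fold change (horizontal axis) with its 95% confidence interval from edgeR for the 7 tested genes in 4 comparisons of 3 libraries against 3; filled symbols have an adjusted p of at most 0.1. The LPS effect runs from 4.19 for Casp4 to -0.80 for Nek7 with control siRNA. For SF3a1 siRNA with LPS 5 genes lie below 0, and Gsdmd and Nek7 lie above it, of which Nek7 did not pass.

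The sensor gene Nlrp3 (chromosome 11, 59541568 to 59566956, plus strand) stood at 82.0, 64.4 and 45.5 CPM in control siRNA without LPS and at 413, 547 and 559 CPM with LPS. It stood at 98.5, 52.4 and 55.3 CPM in SF3a1 siRNA without LPS and at 218, 342 and 386 CPM with LPS. The groups with and without LPS did not overlap with either siRNA, and every library of SF3a1 siRNA with LPS was below every library of control siRNA with LPS. Nlrp3 rose with LPS by 2.98 ± 0.31 on the log2 scale with control siRNA (SE, adjusted p = 1.45e-05 by edgeR) and by 2.20 ± 0.30 with SF3a1 siRNA (adjusted p = 0.000466 by edgeR). Without LPS, SF3a1 siRNA left Nlrp3 within the spread (0.11 ± 0.29, adjusted p = 0.839 by edgeR). With LPS the difference was -0.68 ± 0.29 (adjusted p = 0.0926 by edgeR), close to the threshold. That call was lost without any one of 7 libraries, which were replicate 2 or 3 of control siRNA without LPS (adjusted p = 0.141 and 0.103), replicate 2 or 3 of control siRNA with LPS (0.204 and 0.207), replicate 3 of SF3a1 siRNA without LPS (0.104) and replicate 1 or 2 of SF3a1 siRNA with LPS (0.277 and 0.128), all by edgeR. It was also lost with RLE size factors (adjusted p = 0.107 by edgeR). Over all 18 alternatives its adjusted p ranged from 0.0086 to 0.277.

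The DNA sensor gene Aim2 (chromosome 1, 173350879 to 173466040, plus strand) stood at 37.9, 39.8 and 48.2 CPM in control siRNA without LPS and at 66.3, 126 and 150.3 CPM with LPS. It stood at 35.1, 41.4 and 38.5 CPM in SF3a1 siRNA without LPS and at 43.2, 54.0 and 51.8 CPM with LPS. Only control siRNA with LPS stood clear of the other groups, and its replicate 1 was the lowest of its 3 libraries. Aim2 rose with LPS by 1.44 ± 0.24 on the log2 scale with control siRNA (adjusted p = 0.000735 by edgeR). With SF3a1 siRNA the difference was 0.37 ± 0.24 (95% interval -0.15 to 0.90, adjusted p = 0.475 by edgeR), which did not pass although the 3 libraries with LPS were all above the 3 without it. In the presence of LPS, SF3a1 siRNA lowered Aim2 (-1.20 ± 0.24, adjusted p = 0.00261 by edgeR), and without LPS the difference was -0.13 ± 0.24 (adjusted p = 0.748 by edgeR). Aim2 overlaps Cadm3 on the opposite strand, and reads of the 2 genes cannot be told apart by strand, since the sources do not state whether counting used it.

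Nek7 (chromosome 1, 138482875 to 138620141, minus strand) moved against the other 6 genes. It stood at 65.5, 71.4 and 65.4 CPM in control siRNA without LPS and at 34.7, 38.5 and 43.1 CPM with LPS. It stood at 65.5, 73.9 and 64.4 CPM in SF3a1 siRNA without LPS and at 46.7, 45.0 and 48.4 CPM with LPS. All 6 libraries with LPS were below all 6 without it, and the 2 groups without LPS overlapped. With LPS Nek7 fell, changing by -0.80 ± 0.13 on the log2 scale with control siRNA (adjusted p = 0.000475 by edgeR) and by -0.54 ± 0.13 with SF3a1 siRNA (adjusted p = 0.0203 by edgeR). The latter call was lost without replicate 2 of SF3a1 siRNA without LPS (adjusted p = 0.103) and without a filter on low counts (0.113), both by edgeR, over a range of 0.000204 to 0.113. SF3a1 siRNA with LPS left Nek7 0.27 ± 0.13 higher, which did not pass (adjusted p = 0.129 by edgeR). With the replicate number as a block it did (0.0741), as it did with DESeq2 (0.0624), without replicate 1 of control siRNA without LPS (0.0965) and without replicate 3 of control siRNA with LPS (0.0882). Over all 18 alternatives its adjusted p was 0.0624 to 0.472. Nek7 overlaps the antisense gene Gm28501 and the unclassified transcripts Gm37080 and Gm37101.

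Casp1 (chromosome 9, 5298517 to 5307265, plus strand), the protease of these complexes, stood at 39.1, 36.5 and 41.4 CPM in control siRNA without LPS and at 168, 79.7 and 131 CPM with LPS. It stood at 30.9, 35.0 and 33.0 CPM in SF3a1 siRNA without LPS and at 73.0, 47.1 and 40.2 CPM with LPS. Replicate 1 was the highest library in both groups with LPS, and SF3a1 siRNA with LPS overlapped control siRNA without LPS. Casp1 rose with LPS by 1.70 ± 0.26 on the log2 scale with control siRNA (adjusted p = 0.000368 by edgeR). With SF3a1 siRNA the difference of 0.70 ± 0.26 did not pass (adjusted p = 0.142 by edgeR). It passed with the replicate number as a block (0.0563), without the filter on low counts (0.017), without replicate 1 or 2 of control siRNA with LPS (0.0802 and 0.0712) and without replicate 3 of SF3a1 siRNA with LPS (0.0954), over a range of 0.017 to 0.421. Leaving out all 4 libraries numbered replicate 1 gave 0.36 (adjusted p = 0.36 by edgeR), and leaving out 1 library gave 0.4052 to 0.8688. SF3a1 siRNA with LPS lowered Casp1 (-1.24 ± 0.26, adjusted p = 0.00311 by edgeR), and without LPS the difference was -0.24 ± 0.26 (adjusted p = 0.544 by edgeR). The latter did not pass although the libraries of the groups without LPS did not overlap, and on leaving out 1 library it ran from -0.274 to -0.1125.

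Casp4 (chromosome 9, 5308828 to 5336783, plus strand) lies next to Casp1 and had the largest LPS effect of the 7 genes with control siRNA. It stood at 3.37, 4.16 and 3.36 CPM in control siRNA without LPS and at 58.4, 53.6 and 86.2 CPM with LPS. It stood at 3.21, 2.84 and 3.79 CPM in SF3a1 siRNA without LPS and at 19.4, 14.3 and 16.5 CPM with LPS. The groups without LPS overlapped, and each group with LPS stood clear of all other groups. Casp4 rose with LPS by 4.19 ± 0.23 on the log2 scale with control siRNA, an 18.2-fold rise of the mean (adjusted p = 7.33e-08 by edgeR, rank 49 of 14983 genes by p). With SF3a1 siRNA it rose by 2.36 ± 0.22, a 5.11-fold rise (adjusted p = 2.15e-05 by edgeR). SF3a1 siRNA with LPS left Casp4 at 25.4% of its mean with control siRNA (-1.98 ± 0.21, adjusted p = 4.79e-05 by edgeR), and without LPS the difference was -0.15 ± 0.22 (adjusted p = 0.686 by edgeR).

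Gsdmd (chromosome 15, 75862327 to 75867408, plus strand), whose product forms the membrane pore, had another order of groups. It stood at 112, 97.2 and 112 CPM in control siRNA without LPS and at 220.1, 158 and 190.1 CPM with LPS. It stood at 148, 123 and 149 CPM in SF3a1 siRNA without LPS and at 271, 240 and 261 CPM with LPS. The 4 groups did not overlap, and SF3a1 siRNA was above control siRNA both without and with LPS. Gsdmd rose with LPS by 0.83 ± 0.15 on the log2 scale with control siRNA (adjusted p = 0.00106 by edgeR) and by 0.87 ± 0.15 with SF3a1 siRNA (adjusted p = 0.00227 by edgeR). SF3a1 siRNA raised it by 0.39 ± 0.15 without LPS (adjusted p = 0.0669 by edgeR) and by 0.44 ± 0.15 with LPS (adjusted p = 0.0374 by edgeR). Both calls were lost without a filter on low counts (adjusted p = 0.251 and 0.116 by edgeR). The call without LPS was also lost without replicate 2 of control siRNA without LPS (0.123) and without replicate 1 or 3 of SF3a1 siRNA without LPS (0.169 and 0.191), and that with LPS without replicate 2 of control siRNA with LPS (0.151). The adjusted p ranged from 0.0086 to 0.251 without LPS and from 0.0032 to 0.151 with LPS.

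The cytokine gene Il18 (chromosome 9, 50554827 to 50581840, plus strand) stood at 6.26, 7.19 and 12.01 CPM in control siRNA without LPS and at 39.0, 29.4 and 59.8 CPM with LPS. It stood at 3.21, 4.29 and 6.32 CPM in SF3a1 siRNA without LPS and at 12.1, 11 and 9.91 CPM with LPS. The level with SF3a1 siRNA and LPS lay within the range of control siRNA without LPS but for 1 library, and control siRNA with LPS stood clear of all groups. Il18 rose with LPS by 2.34 ± 0.33 on the log2 scale with control siRNA (adjusted p = 0.000166 by edgeR) and by 1.28 ± 0.33 with SF3a1 siRNA (adjusted p = 0.0327 by edgeR). The latter call was lost without replicate 1 or 2 of SF3a1 siRNA without LPS (adjusted p = 0.137 and 0.116 by edgeR) and without all 4 libraries numbered replicate 1 (0.118), over a range of 0.000101 to 0.137. SF3a1 siRNA with LPS lowered Il18 (-1.95 ± 0.32), to 25.8% of its mean with control siRNA (adjusted p = 7e-04 by edgeR). Without LPS it was lower (-0.90 ± 0.33, adjusted p = 0.0617 by edgeR), a call that was lost with limma-voom (0.102) and without replicate 2 or 3 of control siRNA without LPS (0.106 and 0.35) or replicate 1 or 2 of SF3a1 siRNA without LPS (0.207 and 0.161), over a range of 0.00652 to 0.35. Without replicate 3 of control siRNA without LPS the difference was -0.47. Il18 overlaps Bco2 and Tex12 on the opposite strand.

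Whether the LPS effect differed between the siRNAs was tested by the interaction term, which 3.47% of all genes passed, 1.54% upward and 1.94% downward. Casp4 passed, with an LPS effect that was smaller with SF3a1 siRNA (-1.83 ± 0.30 on the log2 scale, adjusted p = 0.0111 by edgeR, 9.96e-06 to 0.0383 over 18 alternatives). The term was -1.07 ± 0.34 for Aim2 (adjusted p = 0.15 by edgeR), -1.06 ± 0.45 for Il18 (0.326), -0.997 ± 0.363 for Casp1 (0.222), -0.79 ± 0.41 for Nlrp3 (0.463), 0.26 ± 0.18 for Nek7 (0.648) and 0.05 ± 0.21 for Gsdmd (0.976). On leaving out 1 library the term of Nlrp3 ran from -1.069 to -0.4329. With the replicate number as a block 4 of the 7 genes passed, with Casp1 (adjusted p = 0.0642 by edgeR), Aim2 (0.0242) and Il18 (0.0926) beside Casp4, against 1756 of all genes instead of 520. Without the 4 libraries numbered replicate 1 there were 3, with Casp1 (0.0727) and Aim2 (0.00915) beside Casp4, against 1012 of all genes. Aim2 also passed with DESeq2 (adjusted p = 0.0479), without the filter (0.0204) and without replicate 1 of control siRNA with LPS (0.00979), and Casp1 without the filter (0.0416), without replicate 2 of control siRNA with LPS (0.0829) and without replicate 1 of SF3a1 siRNA with LPS (0.081). The interval of Gsdmd, -0.40 to 0.50, still allows an effect of moderate size in either direction.

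Other sensors followed several patterns. The shares of all genes that passed, for this and the following lists, were 13.8% upward and 18.3% downward for LPS with control siRNA. For LPS with SF3a1 siRNA they were 6.6% and 4.06%. They were 13.7% and 20.1% for SF3a1 siRNA without LPS, and 18.4% and 20.4% for SF3a1 siRNA with LPS. Of 11 further sensor genes 9 passed the filter, and with LPS and control siRNA 4 rose, 1 fell and 4 did not pass (median 0.68). Mefv, which encodes pyrin, rose by 3.58 ± 0.61 on the log2 scale from a low level, from a mean of 0.154 to 1.76 CPM, and Naip2, a receptor for bacterial secretion system proteins, rose by 1.09 ± 0.14. Nlrp10 fell by 3.11 ± 0.34, from 16.8 ± 2.7 to 2.03 ± 0.88 CPM. With SF3a1 siRNA, LPS raised none and lowered 3, Nlrp10 (-1.89 ± 0.31), Nlrp1a (-1.31 ± 0.31) and Nlrp1b (-0.69 ± 0.17). SF3a1 siRNA without LPS lowered 4 sensors and raised none, all of them Naip genes, namely Naip1 (-1.29 ± 0.53, adjusted p = 0.0939), Naip5 (-0.78, 0.0442), Naip6 (-0.54, 0.0635) and Naip2 (-0.54 ± 0.14, 0.0156), by edgeR. Each of these 4 calls was lost under some alternative, with an adjusted p of up to 0.308, 0.156, 0.303 and 0.102. With LPS it lowered 6 and raised 1 (median -1.05), with Mefv at -2.06 ± 0.55, Nlrp1a at -1.41 ± 0.31 and Naip2 at -1.33 ± 0.15, while Nlrp10 was higher by 1.41 ± 0.33, or by 0.93 in replicates 2 and 3 alone. Naip and Nlrp1 genes are near-identical paralogs, and since uniquely mapped reads were counted, reads that fit more than one of them are missing from these uncertain values. Nlrp6 and Nlrp12 had 14 and 9 reads in all libraries together.

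Casp8, an initiator caspase that also acts in these complexes, rose with LPS from 70.2 ± 8.4 to 157 ± 7 CPM with control siRNA and from 69.1 ± 8.9 to 94.9 ± 8.5 CPM with SF3a1 siRNA (log2 1.16 ± 0.14 and 0.46 ± 0.14). The rise with SF3a1 siRNA was close to the threshold (adjusted p = 0.0718 by edgeR, up to 0.257 over 18 alternatives). It was lower with SF3a1 siRNA in the presence of LPS (-0.73 ± 0.14, adjusted p = 0.00196 by edgeR). Casp12 had 2 reads in all.

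Of 15 other genes that regulate NLRP3 14 were tested, and with LPS and control siRNA 2 rose, 6 fell and 6 did not pass (median -0.26). Pstpip1, which links pyrin to the cytoskeleton, rose by 1.79 ± 0.16, while the inhibitory sensor Nlrc3 (-1.55 ± 0.20), the channel gene Panx1 (-1.08 ± 0.24) and the ATP receptor gene P2rx7 (-0.86 ± 0.15) fell. With SF3a1 siRNA, LPS raised 1, Pstpip1 (0.82 ± 0.15), and lowered 1, P2rx7 (-0.55 ± 0.15, adjusted p = 0.0483 by edgeR, up to 0.166 over the alternatives). Without LPS, SF3a1 siRNA raised 2 and lowered 4 of the 14, against 33.8% of all genes. With LPS it raised 4 and lowered 3, against 38.8%. The deubiquitinase gene Brcc3, whose product acts on NLRP3, was lower with SF3a1 siRNA both without LPS (-2.03 ± 0.25) and with LPS (-1.69 ± 0.25, adjusted p = 0.00016 and 0.000387 by edgeR). It stood at 17.7, 29.3 and 30.5 CPM in control siRNA without LPS and at 6.13, 7.02 and 5.80 CPM in SF3a1 siRNA without LPS. So were the helicase gene Dhx33 (-0.88 ± 0.16 and -0.86 ± 0.16) and the deacetylase gene Hdac6 (-0.85 ± 0.21 and -0.51 ± 0.21, adjusted p = 0.00887 and 0.0784 by edgeR). Pstpip1 was higher with SF3a1 siRNA in the absence of LPS (1.02 ± 0.15, adjusted p = 0.000462 by edgeR), with no overlap between the libraries, and the difference with LPS was 0.05 ± 0.15 (adjusted p = 0.836 by edgeR). With LPS the channel genes Kcnk6 (0.85 ± 0.23) and Panx1 (0.80 ± 0.24, adjusted p up to 0.104 over the alternatives) were higher with SF3a1 siRNA. Trim31 had 11 reads in all.

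Gsdmd was nearly alone among gasdermin genes. Gsdma, Gsdma2, Gsdma3, Gsdmc and Gsdmc3 had between 1 and 3 reads each over 12 libraries, Gsdmc4 had 31, and Gsdmc2 had none. Gsdme was read at a low level and fell with LPS, from 6.65 ± 0.71 to 1.44 ± 0.62 CPM with control siRNA (-2.19 ± 0.42 on the log2 scale, adjusted p = 0.00178 by edgeR) and from 8.31 ± 2.00 to 2.34 ± 1.19 CPM with SF3a1 siRNA (-1.81 ± 0.41, adjusted p = 0.0156 by edgeR). Ninj1, whose product ruptures the membrane after pore formation, had the same order of group means as Gsdmd. It stood at 119 ± 11 and 304 ± 9 CPM without and with LPS with control siRNA and at 178 ± 19 and 455 ± 42 CPM with SF3a1 siRNA. It rose with LPS by 1.35 ± 0.13 with either siRNA and was 0.58 ± 0.13 higher with SF3a1 siRNA both without and with LPS. Of the 13 other genes of pores and membrane repair 6 were tested. With LPS 2 rose and 2 fell with control siRNA, with Chmp4b of the repair complex ESCRT-III at 1.32 ± 0.16 and Vps4a at -0.39 ± 0.12, and 2 rose and 1 fell with SF3a1 siRNA. SF3a1 siRNA raised 2 without LPS, against 13.7% of all genes, namely Ninj1 and Chmp4b (0.44 ± 0.16). With LPS it raised 3, against 18.4% of all genes, namely Vps4a (0.65 ± 0.12), Ninj1 and Vps4b (0.34 ± 0.14). It lowered none in either case. Among these, the calls of Chmp4b without LPS (adjusted p = 0.061 by edgeR, up to 0.195 over the alternatives) and Vps4b with LPS (0.0834, up to 0.271) were lost under some alternatives. So were those for LPS of Vps4a with control siRNA (up to 0.196) and Chmp4b with SF3a1 siRNA (up to 0.138).

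The IL-1 family, to which IL-18 belongs, included genes with almost no reads before LPS. Of 11 further genes 8 were tested, and with control siRNA 7 rose with LPS and none fell (median 4.38). Il1b, the gene of the other substrate of caspase-1, stood at 0.168 ± 0.083 CPM without LPS and at 3083 ± 978 CPM with LPS. With SF3a1 siRNA it stood at 0.483 ± 0.384 CPM without LPS and at 973 ± 353 CPM with LPS. Il1a had 1 read over the 3 libraries of control siRNA without LPS and a mean of 948 ± 405 CPM with LPS, and Il33 had 1 read and 24.1 ± 14.4 CPM. With SF3a1 siRNA, 4 of the 8 rose with LPS and none fell. Il33 had no read in SF3a1 siRNA without LPS and was at least 80.2-fold higher with LPS, set against 3 counts over the group. The receptor antagonist gene Il1rn rose by 4.74 ± 0.41 with control siRNA and by 2.11 ± 0.37 with SF3a1 siRNA. SF3a1 siRNA with LPS lowered 6 of the 8 (median -1.69), including Il33 (-2.57 ± 0.44), Il18bp, which encodes the protein that neutralises IL-18 (-2.17 ± 0.39), Il1rn (-1.82 ± 0.36), Il1a (-1.73 ± 0.35) and Il1b (-1.66 ± 0.33). Without LPS 2 passed, both higher, the receptor subunit gene Il1rap (1.40 ± 0.26) and Il1b (1.64 ± 0.67, adjusted p = 0.0913 by edgeR and 0.00232 to 0.733 over 18 alternatives). For Il1b the libraries of these groups overlapped and held 15 and 33 reads, and the difference was 0.60 without replicate 1 of SF3a1 siRNA without LPS.

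Guanylate-binding proteins and the GTPase IRGB10 expose bacterial LPS and DNA to caspase-11 and AIM2, and they are induced through interferon receptors and IRF1. All 9 genes of this list were tested, and with control siRNA 7 rose with LPS, 1 fell and 1 did not pass (median 7.68). Gbp2 rose from 0.569 ± 0.407 to 200.3 ± 84.2 CPM, Gbp3 from 0.715 ± 0.374 to 281 ± 86 CPM, Gbp5 from 0.140 ± 0.123 to 189 ± 89 CPM and Irgb10 from 0.118 ± 0.023 to 24.9 ± 3.0 CPM. With SF3a1 siRNA 6 rose with LPS and none fell (median 5.05, or 5.2 with groups of at most 3 counts set to 3 counts). SF3a1 siRNA with LPS lowered 7 of the 9 and raised none (median -3.03), and it left Gbp2 at 8.17%, Gbp3 at 12.2%, Gbp5 at 7.79% and Irgb10 at 7.52% of the mean with control siRNA. Without LPS it lowered 1, the receptor gene Ifnar2 (-0.32 ± 0.13), close to the threshold (adjusted p = 0.0808 by edgeR, up to 0.412 over the alternatives), and it was -0.20 without replicate 3 of control siRNA without LPS. These GTPase genes are paralogs, and reads that map to more than one of them were not counted.

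Necroptosis and apoptosis genes were less uniform. All 9 were tested, and with LPS 2 rose and 3 fell with control siRNA (median -0.19), while 2 rose and 1 fell with SF3a1 siRNA. Zbp1, a sensor of Z-form nucleic acid, rose by 8.09 ± 0.63 and by 5.96 ± 0.61, and Mlkl, the executioner of necroptosis, by 2.83 ± 0.32 and by 1.41 ± 0.32. The death receptor adaptor gene Fadd (-0.83 ± 0.21) and the caspase gene Casp6 (-0.79 ± 0.22) fell with control siRNA, and Casp6 (-0.70 ± 0.22, adjusted p = 0.0773 by edgeR) with SF3a1 siRNA. SF3a1 siRNA lowered 2 and raised none without LPS, with Fadd at -1.21 ± 0.21 and Mlkl at -0.97 ± 0.31. With LPS it lowered 5 and raised 2, with Zbp1 at -2.63 ± 0.47, Mlkl at -2.39 ± 0.31 and the apoptosome gene Apaf1 at -0.74 ± 0.28 lower and Casp9, the apoptosome caspase, 1.06 ± 0.29 higher. Under some alternatives the calls of Casp6 with LPS (adjusted p up to 0.105 with control siRNA and 0.241 with SF3a1 siRNA), Mlkl with SF3a1 siRNA in the absence of LPS (up to 0.165) and Apaf1 (up to 0.285) were lost. For Apaf1 the libraries of the 2 groups overlapped, and the difference was -0.38 without replicate 1 of control siRNA with LPS and -0.49 without replicate 2 of SF3a1 siRNA with LPS. Over the 56 tested genes of all lists, 25 rose and 13 fell with LPS and control siRNA, and 16 rose and 6 fell with LPS and SF3a1 siRNA. With SF3a1 siRNA 6 were higher and 11 lower in the absence of LPS, and 10 were higher and 28 lower in its presence. The shares of all genes that passed in these comparisons were 32.1%, 10.7%, 33.8% and 38.8%.

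**Figure D4:**
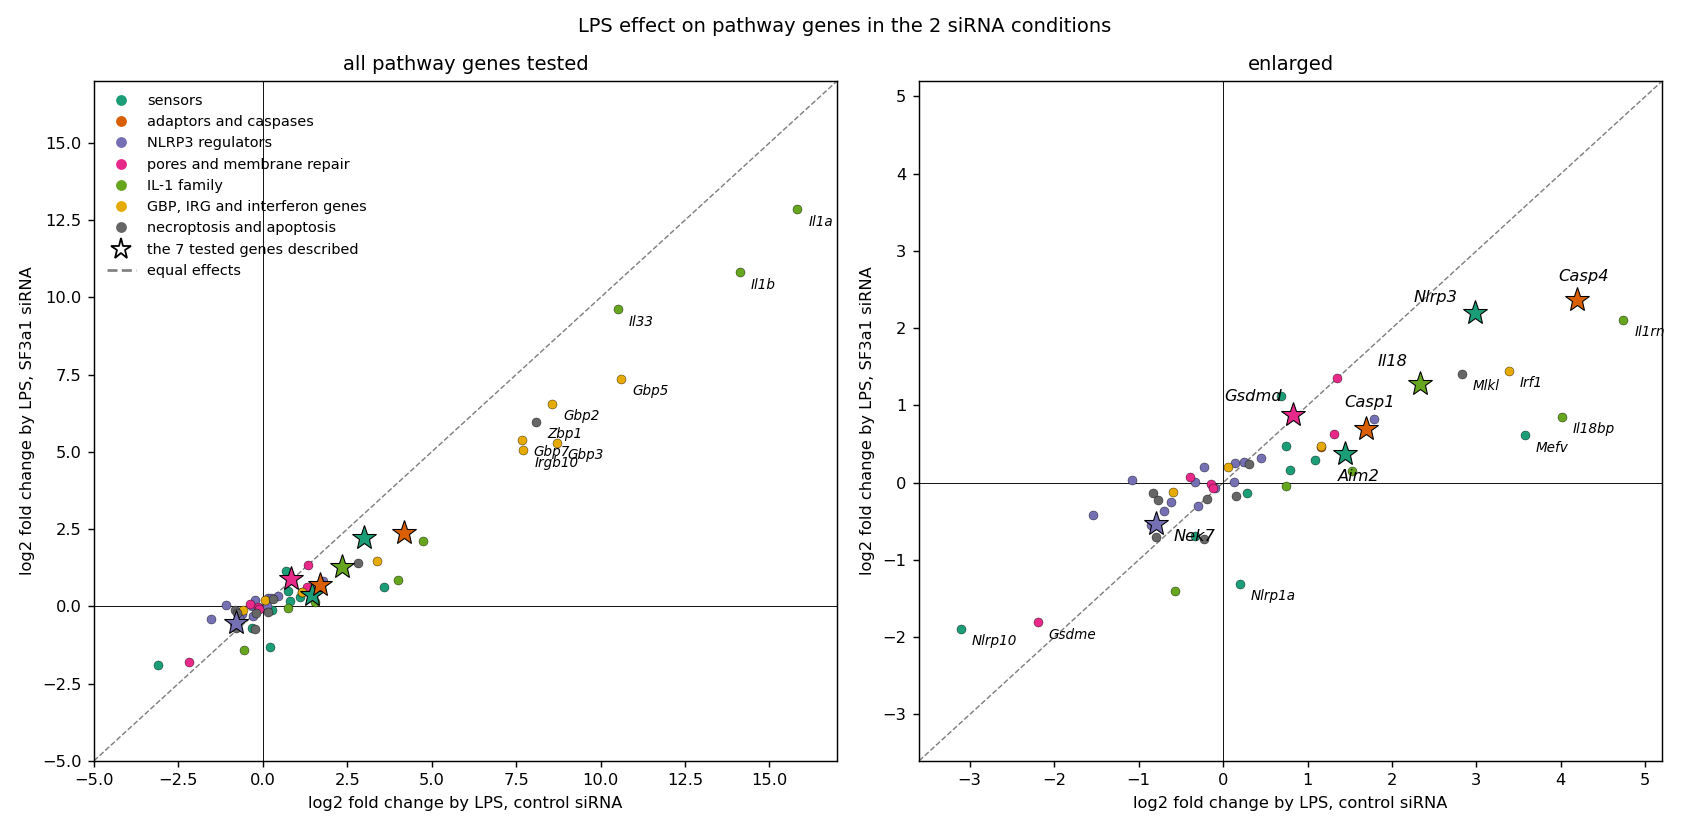
Log2 fold change by LPS with control siRNA (horizontal axis) and with SF3a1 siRNA (vertical axis), from separate libraries, for the tested pathway genes, in full on the left and enlarged on the right; stars mark the 7 tested genes of the 8 described, and the dashed line marks equal effects. Fitted values of genes with almost no reads without LPS, such as Il1a, are not bounds; Casp4 lies at 4.19 and 2.36 and Gsdmd near the line at 0.83 and 0.87.

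The genes whose pattern over the 12 libraries was most like each member were found by Pearson correlation of log2 CPM among 14982 other genes. These points share the 4 groups and the library depths, so the values are descriptions. Nlrp3 was closest to Tnfaip3 (r = 0.989), Pde4b (0.988) and Tnfaip2 (0.985), and Casp4 to Gm43302 (0.994), Trim30c (0.994) and Gbp7 (0.993). Casp1 was closest to Gm49342 (0.970), H2-Q6 (0.962) and Il1f6 (0.959), and Il18 to A630001G21Rik (0.972), Phf11b (0.967) and Gm7582 (0.966). Aim2 was closest to Apobr (0.962), Zup1 (0.957) and Tpst1 (0.953), Gsdmd to Gm11611 (0.993), Cgref1 (0.984) and Cpne2 (0.982), and Nek7 to Otulinl (0.973), Pip4k2a (0.969) and the sensor gene Nlrp10 (0.965). Among the 7 genes themselves the correlation was highest between Nlrp3 and Casp4 (0.937) and lowest between Nek7 and Casp4 (-0.946), and Gsdmd and Aim2 had 0.292.

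Since SF3a1 is a splicing factor, the use of exons within these genes was compared in 11 libraries, as control siRNA with LPS replicate 3 was not analysed at the exon level. Exon bins are the smallest pieces into which the annotated exons of a gene divide, and 82 bins of 7 genes were tested. No bin of these genes passed in any of 3 comparisons by edgeR's diffSpliceDGE at an adjusted p of at most 0.1. Among 10609 genes, 0.462% had a called bin for LPS with control siRNA, and for SF3a1 siRNA 6.16% had one in the absence and 5.03% in the presence of LPS, which are 0.0801%, 0.626% and 0.492% of 153624 bins. Under a block for the replicate number 129, 1217 and 1102 genes had a called bin, instead of 49, 653 and 534. At an unadjusted p under 0.05 there were 3 of the 82 bins in the LPS comparison, 0 in the siRNA comparison without LPS and 1 in that with LPS, and limma-voom called none of these genes either. The smallest p for SF3a1 siRNA was at bin 4 of Casp4 without LPS (1.61 on the log2 scale against the rest of the gene, adjusted p = 1.0 by edgeR) and at bin 4 of Aim2 with LPS (-1.21, adjusted p = 1.0 by edgeR).

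The smallest p for LPS was at Aim2 bin 3. It held 0.789%, 0.410% and 0.428% of the bin counts of Aim2 in control siRNA without LPS and 3.47% and 2.00% in the 2 libraries with LPS, from 5 to 19 and from 43 to 128 counts. Bin 4 held 1.495%, 0.164% and 0.551% without LPS and 3.01% and 2.79% with LPS. Neither bin overlapped between these groups, which hold 3 and 2 libraries. Both bins were named for their small p, so this separation is a description, and its share among all bins was not counted. The use of bin 3 was 2.18 higher with LPS on the log2 scale (adjusted p = 0.313 by edgeR). With the replicate number as a block bin 3 (adjusted p = 0.0122 by edgeR) and bin 4 (0.0471) passed, and without replicate 1 of control siRNA without LPS bin 4 passed (0.0988), over ranges of 0.0122 to 1.0 and 0.0471 to 1.0 over 15 alternatives. In SF3a1 siRNA bin 3 held 0.568%, 0% and 0.429% without LPS and 1.61%, 1.10% and 1.40% with LPS. The bins of Aim2 could not be placed on the genome, since its bins in the annotation used here differ in number from the deposited ones.

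**Figure D5:**
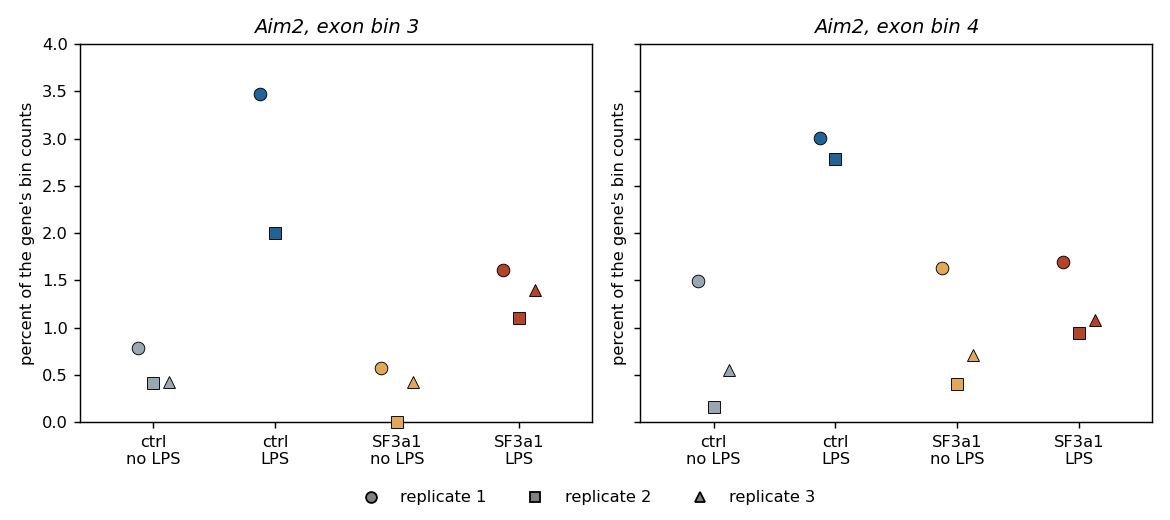
Share of the exon bin counts of Aim2 (percent, vertical axes) that fell in bin 3 (left) and bin 4 (right) in each of 11 libraries, by group and replicate number. The 2 libraries of control siRNA with LPS lie at 2.00% and 3.47% for bin 3, above the libraries of the other groups.

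In Casp1, the share of the bin counts in some exons was higher in 3 of the 4 libraries numbered replicate 1 than in any other library. The exons of bins 7 and 8 (chromosome 9, 5304187 to 5304327 and 5306117 to 5306226) held 37.9%, 44.0%, 25.1% and 44.1% in the 4 libraries numbered replicate 1 (control siRNA without and with LPS, then SF3a1 siRNA without and with LPS) and 19.2% to 28.4% in the 7 others, so that SF3a1 siRNA without LPS replicate 1 lay within the range of the others. The part of this difference in the gene-level values of Casp1 was not tested.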

How the data were processed

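Reads from an Ion Proton sequencer were mapped by the authors to the mouse build mm10 with GSNAP, and uniquely mapped reads were counted per gene with HTSeq on an Ensembl annotation. The raw counts deposited by the authors were used per gene for 12 libraries and per exon bin for 11. Exon bins of replicate 3 of control siRNA with LPS were not analysed here. Use of strand in counting is not given in the sources used here. Reads outside genes, 17.8% to 27.2% per library, were left out.

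Of 38215 genes 14983 passed edgeR's filterByExpr in a fit of all 12 libraries (edgeR 4.0.16, R 4.3.3; TMM, quasi-likelihood test, Benjamini-Hochberg over all genes tested, adjusted p of at most 0.1). Exon bins were tested with diffSpliceDGE. The scripts were tested on simulated data. Alternatives were RLE size factors, DESeq2 1.42.0, limma-voom (limma 3.58.1), no filter on low counts (for bins, at least 10 counts), the replicate number as a block, each library left out, another gene length and, chosen after the data were seen, replicates 2 and 3 alone. For folds of means, a group with no read was set to 3 counts over the group. For a median given with such groups set to 3 counts, this was done for groups of at most 3 counts.

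Libraries with the same replicate number were alike: deviations from group means correlated at 0.14 to 0.60 in all 18 same-number pairs (median 0.36) and at -0.52 to 0.35 in the 36 other pairs (median -0.31). Deviations within a group cancel out, so the negative median follows in part from the positive one. An offset shared by the libraries numbered replicate 1 could give such values too, and was not tested apart from pairing. The main tests held no term for the replicate number. The labels do not say what a number shares.

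The 8 genes, the pathway lists and the marker lists were chosen with earlier results of these data known, and some genes of the lists are not reported here. Named were the 8 genes, up to 4 called genes with the largest change per list and comparison, list genes with no read, and Sf3a1, Tnf and Il1b. For each of the 8, the 3 genes with the most similar pattern and the exon bin with the smallest p followed. Gene names and lengths came from GENCODE on the same build. Other genes named for their values or level were chosen after these were seen.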

Additional observations from a re-analysis of the deposited data

Results flagged for a closer look

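For Casp4 among the 7 tested genes of the 8 and for 10 of the 56 tested genes of the other lists the LPS effect differed between the siRNAs by the interaction term (edgeR, adjusted p of at most 0.1), which 3.47% of all genes passed. It is given here as the log2 LPS effect with SF3a1 siRNA minus that with control siRNA. Among the genes of the inflammasome and its sensors the value was -1.83 for Casp4 and -0.79 for Naip2. Among regulators it was 1.13 for Nlrc3, the gene with the only positive value of the 11, and -0.97 for Pstpip1. In the IL-1 family it was -3.31 for Il1b, -3.16 for Il18bp, -2.63 for Il1rn and -1.39 for Il1rap. Il1b had 15 reads in control siRNA without LPS, so its LPS effect rests on few reads in that group. Il18bp had 462 reads over the 12 libraries together, and its mean with control siRNA was 16.2-fold higher with LPS. Its LPS effect thus also rests on few reads without LPS. Among genes of the interferon response it was -3.43 for Gbp3, -2.29 for Gbp7 and -1.94 for Irf1. Over all alternatives the adjusted p of Casp4 stayed at or below 0.0383 and that of Il1rn at or below 0.0651, whereas the other 9 of the 11 calls were lost under some alternative. The highest adjusted p was 0.395 for Il1b, 0.241 for Naip2, 0.217 for Gbp7, 0.168 for Il1rap, 0.16 for Nlrc3, 0.113 for Gbp3, 0.111 for Il18bp, 0.11 for Irf1 and 0.101 for Pstpip1.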

How the results depend on the processing

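All 7 calls for LPS with control siRNA kept their direction and side of the threshold under each alternative. For the 7 genes over 5 comparisons, 188 of the values under alternatives other than leaving out 1 library kept both, 12 newly passed, 6 no longer passed and 4 changed sign. On leaving out 1 library these numbers were 385, 8, 18 and 9.
Values that changed sign belonged to uncalled differences: for SF3a1 siRNA without LPS, Nlrp3 at -0.0288 in replicates 2 and 3 alone and Nek7 at -0.0098 without a filter, and for the interaction, Gsdmd at -0.0013 with RLE size factors and -0.0017 with DESeq2. On leaving out 1 library the SF3a1 siRNA difference without LPS ran from -0.2478 to 0.4277 for Nlrp3, -0.2521 to 0.0352 for Casp4, -0.1754 to 0.0676 for Aim2 and -0.0407 to 0.1323 for Nek7, the interaction of Gsdmd from -0.0671 to 0.1694, and the LPS difference of Sf3a1 with SF3a1 siRNA from -0.0194 to 0.38.
For SF3a1 siRNA without LPS 1 of the 7 genes passed with limma-voom and 1 without a filter, with 5041 and 4772 of all genes, against 5069. For the interaction 2 passed with DESeq2, 3 without a filter, 4 with the replicate block and 3 in replicates 2 and 3 alone, with 966, 930, 1756 and 1012 of all genes. The replicate block gave 3115 genes for LPS with SF3a1 siRNA, 129, 1217 and 1102 genes with a called exon bin in the 3 exon comparisons, and 1 of the 7 genes, Aim2, with one for LPS. It changed no other call of these genes than those given with the results. Per kb of the longest transcript, Casp4 stood at 34.74, Gsdmd at 105.8 and Nek7 at 7.372 CPM in control siRNA with LPS.
On leaving out 1 library, 3 to 6 of the 7 genes and 1050 to 2005 of all genes passed for LPS with SF3a1 siRNA. The numbers were 0 to 2 of the 7 and 3881 to 5627 of all genes for SF3a1 siRNA without LPS. For the interaction they were 1 to 2 of the 7 and 273 to 711 of all genes. Genes with a called bin numbered 23 to 60 for LPS, with 0 to 1 of the 7, 382 to 768 for SF3a1 siRNA without LPS, and 83 to 603 for SF3a1 siRNA with LPS, the lowest without replicate 1 of control siRNA with LPS. At the exon level that group has 2 libraries, so leaving out either left a single library, which was assumed to vary like the other groups, and the 23 and 83 come from such a fit. The cause of these changes was not tested. Depth limits Pycard, with 6 reads in all, and the low exon bins of Aim2.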
